A study of Mus musculus with 4 samples.

Results

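The genes of the nuclear pore and of transport through it made up 48 of the 26022 genes in the deposited table, and all 48 passed the filter on low counts and were among the 14259 genes tested. They were chosen by symbol alone, as the numbered nucleoporins (*Nup*), the importin alpha genes (*Kpna*), importin beta (*Kpnb1*) with the other importins (*Ipo*) and transportins (*Tnpo*), the exportins (*Xpo* and *Cse1l*), and *Ran*, *Rangap1* and *Rcc1* of the Ran cycle. There were 21 nucleoporins and 27 transport factors among them. RNA was measured in mouse embryos at the late 2C stage, from the outbred ICR strain, which had been kept as zygotes in KSOM medium for 16 h. One group was cultured with 200 μM Mdivi-1, a compound that inhibits DRP1, the protein of mitochondrial fission, and the control group without it. The paper's methods do not say whether the control medium held the solvent of the inhibitor. Each group had 2 libraries, made by the Smart-Seq2 method from 8 to 10 pooled embryos for each group as the methods give it, and no source tells whether replicate libraries were made from different litters. The p-values thus reflect only how far these samples lay apart, which may be technical.

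Traffic between nucleus and cytoplasm runs through the nuclear pore, a ring of nucleoporins set in the nuclear envelope. A Y-shaped scaffold complex and an inner ring hold the pore, and nucleoporins rich in phenylalanine-glycine repeats fill its central channel. Importin alpha reads the nuclear localization signal of a cargo and binds importin beta, which passes the channel. Ran in its GTP-bound form, made by RCC1 on chromatin, releases imported cargo inside the nucleus and loads exportins, and RANGAP1 on the cytoplasmic side turns it back to the GDP-bound form. The egg stores transcripts of this machinery, and the mouse embryo at the 2C stage needs it to bring transcription factors into its newly active nuclei.

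The raw counts of the libraries summed to between 17712075 and 20077326. Levels are given as CPM, counts scaled to the library total after TMM normalization. All 8 markers of the 2C embryo were measured, and their summed CPM was 2038 and 2467 in treated libraries and 768 and 1325 in controls. Of these 8, 4 were higher and 0 lower at an unadjusted p under 0.05, beside 8.27% and 7.64% of all genes tested. All 8 markers of the oocyte and egg were measured as well, with a summed CPM of 3514 and 4554 in treated libraries and 1528 and 3128 in controls. Of them, 2 were higher and 1 lower at an unadjusted p under 0.05, beside the same shares of all genes. Both sums were higher in each treated library than in each control, as was the level of the oocyte and early embryo gene *Kpna7*. The part of both sums in the values of *Kpna7* was not tested. Most of the oocyte sum was *Oosp1*, with 2401 and 3198 CPM in treated libraries against 956 and 2368 CPM in controls. *Bmp15* and *Gdf9* were the 2 higher oocyte markers and *Zp3* the lower one, and *Nlrp5*, *Ooep*, *Mos* and *Padi6* overlapped between the groups. Of 8 markers of cumulus and granulosa cells, *Amh*, *Has2* and *Ptx3* were at 0 counts in all 4 libraries, and the list summed to 14.8 and 18.5 CPM in treated libraries and 7.78 and 16.3 CPM in controls. Of 8 markers of later stages, *Cdx2* and *Sox17* were at 0, and the list summed to 32.0 and 30.0 CPM against 14.1 and 18.4 CPM. Most of this sum was *Gata3*, with 26.4 and 22.5 CPM in treated libraries against 10.5 and 9.45 CPM in controls. *Gata3* was the 1 gene of this list that was higher at an unadjusted p under 0.05, and 0 were lower. Markers of sperm summed to 6.07 and 2.76 CPM in treated libraries and 1.91 and 0.262 CPM in controls, with *Tnp2* at 0 in all.

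The genes with the smallest p-values between Mdivi-1-treated and control embryos were the importin alphas *Kpna7* (log2 fold change 1.67) and *Kpna3* (0.84) and the nucleoporins *Nup62* (0.90) and *Nup50* (0.86) on the higher side, and *Ran* (-0.72) and 4 subunits of the Y complex (-1.42 to -0.79) on the lower side. None of these differences passed the correction over all genes by edgeR. Of the 48 genes, 0 passed an adjusted p of 0.05 by edgeR's quasi-likelihood test, as did 0 of all 14259 genes (0.00%). The lowest adjusted p among the 48 was 0.173, that of *Kpna7*. At an unadjusted p under 0.05, 4 genes were higher in Mdivi-1-treated embryos (*Kpna7*, *Kpna3*, *Nup62* and *Nup50*), or 8.33% of the 48 beside 8.27% of all genes tested. In the other direction 5 genes were lower (*Nup107*, *Nup43*, *Ran*, *Nup160* and *Nup85*), or 10.4% beside 7.64% of all genes tested. Both shares were near those of all genes, so that the number of genes past this threshold did not set nuclear transport apart. The counts depended on single libraries, among the 48 genes and likewise among all genes tested. DESeq2, the tool named in the paper's methods, called *Kpna7* higher and *Nup43* lower at an adjusted p under 0.05. That was 1 of 48 in each direction (2.08%), beside 3.30% of 13982 genes called higher and 2.80% called lower. The median log2 fold change of the 48 genes was -0.27, against 0.03 for all genes tested, with 30 negative values (62.5%, beside 48.7% of all genes) and 18 positive ones (37.5%, beside 51.3%). In 21 genes both treated libraries lay below both controls (43.8%, beside 23.9% of all genes), and in 11 both lay above (22.9%, beside 26.1%). In these pooled embryos, fewer embryos or cells with a transcript and less of it per cell cannot be told apart.

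**Figure D1:**
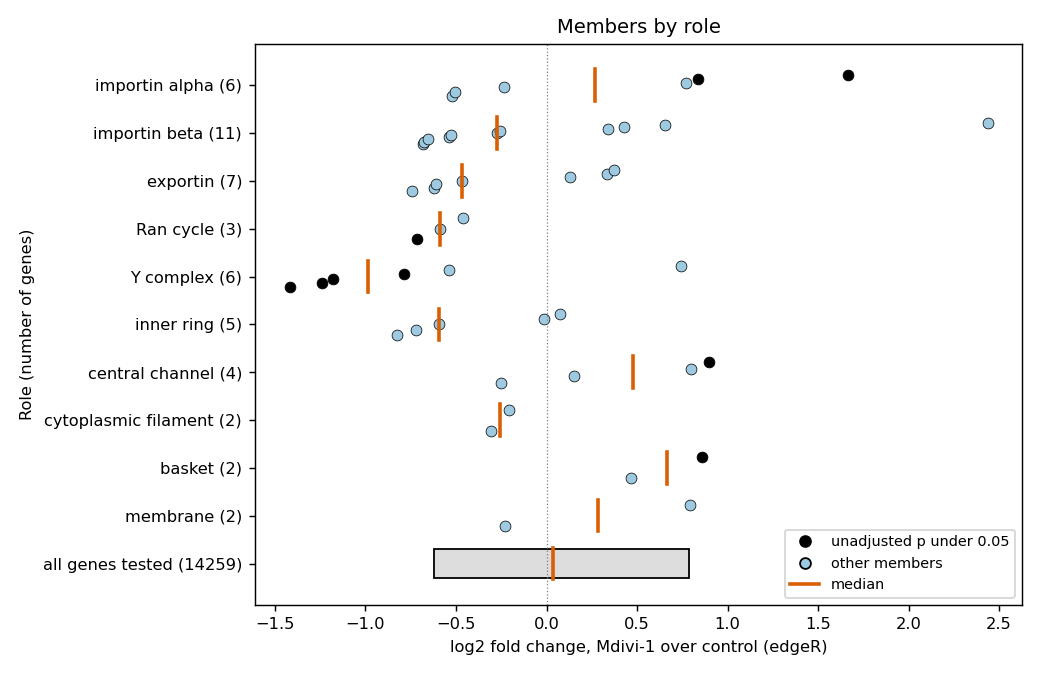
Log2 fold change of Mdivi-1 over control (x axis, edgeR) of each of the 48 genes, as a dot, by role (y axis, gene number in brackets), above a box that spans the quartiles of all 14259 genes tested. Orange bars are medians and black dots are genes with an unadjusted p under 0.05, of which 4 lie in the Y complex, all to the left of 0.

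A promoter motif was shared by some of these genes. Of the 38 genes matched to a RefSeq window from 250 bases before to 50 bases after the start, 5 held the half-site GCGCA followed directly by its reverse complement (a palindrome, which reads alike on both strands), the core of the site bound by NRF1. NRF1 is a transcription factor known for nuclear genes of mitochondrial function, and its site is common in CpG-rich promoters of housekeeping genes. The share was 13.2%, beside 2.07% of 11325 tested genes and 1.07% of all 27025 genes with a window. The genes were *Nup107*, *Nup50*, *Nup62*, *Ran* and *Xpo5*. The first 4 are among the 9 genes with an unadjusted p under 0.05, where 8.27% of all genes tested were higher and 7.64% lower. *Nup50* and *Nup62* were higher and *Nup107* and *Ran* lower, so that genes with the motif lay in both directions. Of the 9, *Kpna3*, *Nup43* and *Nup85* had no window. Whether the motif goes with the difference between the groups was not tested. The stretches are shown because 4 of these genes are among those the results turn on, with the motif in capitals, 5′ to 3′ along the gene, in GRCm38.p6. They lie at chr10:117792736-117792795 (minus strand) for *Nup107*, chr15:84923298-84923357 for the copy of *Nup50* nearer to the start, chr7:44816043-44816087 for *Nup62*, chr5:129019926-129019985 for *Ran* and chr17:46202701-46202760 for *Xpo5*.
Nup107: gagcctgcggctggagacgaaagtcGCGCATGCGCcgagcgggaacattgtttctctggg
Nup50: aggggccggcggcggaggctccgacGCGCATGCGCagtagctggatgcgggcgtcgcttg
Nup62: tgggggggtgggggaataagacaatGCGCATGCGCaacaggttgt
Ran: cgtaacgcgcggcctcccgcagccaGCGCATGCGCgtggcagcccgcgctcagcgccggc
Xpo5: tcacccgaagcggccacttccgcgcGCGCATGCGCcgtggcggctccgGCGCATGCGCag
The motif begins 65 bases before the start of *Nup107*, 105 of *Nup50*, 20 of *Nup62*, 205 of *Ran* and, for its first copy, 85 of *Xpo5*. *Nup50* and *Xpo5* each hold a second copy. *Xpo5* itself overlapped between the groups, with 15.2 and 23.9 CPM in treated libraries against 21.9 and 8.27 CPM in controls. A CCAAT box (CCAAT) was found in 20 of the 38 genes (52.6%, beside 43.6% of tested genes), a GC box (GGGCGG) in 28 (73.7%, beside 61.9%) and a TATA box (TATAAA) in 4 (10.5%, beside 10.4%), on either strand. The homeobox element TAATTG, which the oocyte factor NOBOX binds, was in 0 of the 38 windows, beside 6.68% of tested genes. These matches describe the letters in this window and not binding. *Cse1l*, *Kpna1*, *Kpna3*, *Kpna6*, *Nup210l*, *Nup35*, *Nup43*, *Nup85*, *Xpo4* and *Xpo7* were not matched.

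Among all 48 genes *Kpna2* had the highest level per kb of exon in each of the 4 libraries. This scale divides CPM by the merged exonic length in GENCODE M21, which counts exons of all isoforms and so sets genes with long rare exons low. On it *Kpna2* had 251 and 441 CPM per kb in Mdivi-1-treated libraries, against 450 and 534 CPM per kb in controls. *Ran* (94.4 and 88.0 against 145 and 155 CPM per kb), *Nup98* (109 and 127 against 141 and 71.2 CPM per kb), *Nup43* (66.9 and 96.3 against 113 and 273 CPM per kb) and *Xpo1* (45.0 and 56.7 against 76.0 and 80.6 CPM per kb) were among the 7 highest in each library. *Nup210*, a membrane-spanning nucleoporin of differentiated cells, was the lowest, with 40 and 26 counts in treated libraries and 44 and 0 in controls. Between the libraries of a group, the median gene of the 48 differed 1.26-fold in treated embryos and 1.35-fold in controls. Single genes could differ more, as *Ipo13* did, 4.03-fold in treated embryos and 7.63-fold in controls. The tests did not use these medians but a spread estimated with all genes tested. Over all of them the coefficient of variation between replicates was estimated at 0.66. Across the 48 genes, Spearman's rho of log2 fold change was 0.04 with exonic length and -0.16 with mean level, as a description over genes of the same libraries.

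The importin alpha genes lay on both sides of the controls. *Kpna7*, the importin alpha that is restricted to the oocyte and early embryo in the mouse, had 35.4 and 30.7 CPM in treated libraries and 11.6 and 9.19 CPM in controls. It rested on 659 and 589 counts in treated libraries and 255 and 140 counts in controls. Both treated libraries lay above both controls by more than either pair of replicates differed. The log2 fold change was 1.67 (standard error 0.42, adjusted p = 0.173 by edgeR and 0.0324 by DESeq2). It was the largest among the 48 genes with at least 5 CPM in every library. *Kpna7* (ENSMUSG00000038770) lies on chromosome 5 of GRCm38 from 144983519 to 145084030, on the minus strand. With DESeq2 and 1 library left out, its adjusted p was 0.0428 without control replicate 1, 0.137 without control replicate 2, 0.303 without Mdivi-1 replicate 2 and 0.530 without Mdivi-1 replicate 1.

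Before the start of *Kpna7* stand 3 E-boxes (CANNTG, searched on both strands), the motif that helix-loop-helix factors such as the oocyte's FIGLA bind. The stretch that holds them is shown because *Kpna7* had the smallest p of the 48 genes. It is RefSeq sequence of GRCm38.p6, chr5:145009709-145009833 on the minus strand, 5′ to 3′, with the E-boxes in capitals.
Kpna7: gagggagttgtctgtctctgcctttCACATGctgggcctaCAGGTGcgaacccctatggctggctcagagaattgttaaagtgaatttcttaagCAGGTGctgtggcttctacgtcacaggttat
The first E-box begins 172 bases before the RefSeq start, which lies within the longer span that GENCODE M21 gives the gene. An E-box is a short and common motif, found in such a window of 75.0% of 27025 genes, and 19.7% of genes hold at least 3, so that the match is a description only. Of the 38 nuclear transport genes with a window, 17 held an E-box (44.7%), beside 69.2% of 11325 tested genes.

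*Kpna3*, a widely expressed importin alpha on chromosome 14 (61365211 to 61439874, minus strand), had 334 and 354 CPM in treated libraries and 217 and 168 CPM in controls, again without overlap. Its log2 fold change was 0.84 (standard error 0.30, adjusted p = 0.244 by edgeR). *Kpna6* had 36.1 and 33.4 CPM in treated libraries against 28.6 and 12.1 CPM in controls. On the other side stood *Kpna2*, the most abundant importin alpha, with 721 and 1267 CPM in treated libraries and 1292 and 1533 CPM in controls (log2 fold change -0.51, standard error 0.37, adjusted p = 0.574 by edgeR). Its treated libraries differed 1.76-fold from each other, and treated replicate 2 lay only just below control replicate 1. The transcript of *Kpna2* has stretches at least 95% identical in 5 other annotated genes, so that reads from these stretches may be missing from its count. *Kpna1* had 188 and 200 CPM against 274 and 283 CPM (log2 fold change -0.52), and *Kpna4* 21.8 and 20.9 CPM against 23.2 and 27.0 CPM (-0.23). In all 6 genes the groups did not overlap, with 3 above and 3 below, as 26.1% of all genes lay above and 23.9% below.

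The make-up of the importin alpha transcripts, which does not depend on how libraries are scaled to each other, differed in the same sense. *Kpna2* held 67.9% and 78.2% of the importin alpha CPM per kb in treated libraries and 82.8% and 86.9% in controls. *Kpna3* held 21.0% and 14.6% in treated libraries, against 9.29% and 6.38% in controls. *Kpna7* held 3.05% and 1.74%, against 0.682% and 0.477%. Thus *Kpna2* remained the main importin alpha in every library, and *Kpna7* a minor one. Per kb, *Kpna7* stood to *Kpna2* at 0.0449 and 0.0222 in treated libraries and at 0.00823 and 0.00549 in controls. Treated replicate 1, which had the least *Kpna2*, had the highest shares of the other importin alphas.

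**Figure D2:**
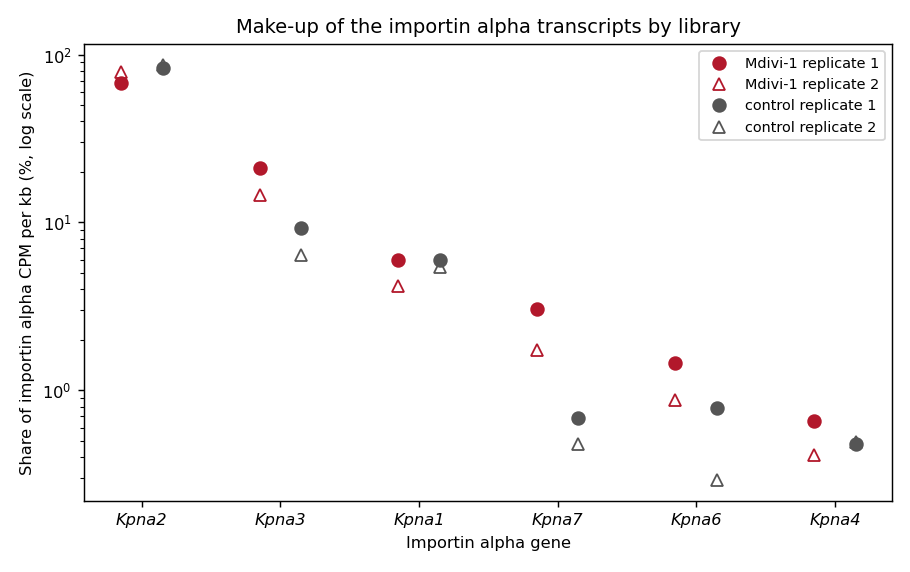
Share of each importin alpha gene (x axis) in the summed importin alpha CPM per kb of a library (y axis, %, log scale), with Mdivi-1 libraries in red, controls in grey, filled circles for replicate 1 and open triangles for replicate 2. *Kpna2* held 67.9% to 86.9% in every library, and the treated libraries lay above the controls for *Kpna3* and *Kpna7*.

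The import receptors of the importin beta kind did not move together. Of 11 genes, 4 lay on the positive and 7 on the negative side (beside 51.3% and 48.7% of all genes), with a median log2 fold change of -0.28. At an unadjusted p under 0.05 were 0 of them, beside 8.27% of all genes higher and 7.64% lower. *Kpnb1*, importin beta itself, had 112 and 102 CPM in treated libraries and 159 and 99.9 CPM in controls (log2 fold change -0.28, adjusted p = 0.765 by edgeR). Only control replicate 1 stood apart, and without it the log2 fold change was 0.09. *Ipo8* had 195 and 247 CPM in treated libraries against 150 and 131 CPM in controls (log2 fold change 0.65). *Ipo7* had 60.4 and 64.2 CPM against 116 and 79.9 CPM (log2 fold change -0.66), and *Tnpo3*, which imports SR splicing factors, 46.1 and 69.6 CPM against 95.02 and 90.6 CPM (-0.68). In *Ipo8*, *Ipo7* and *Tnpo3* the groups did not overlap. Of the 11 genes, 3 lay above without overlap and 4 below, beside 26.1% and 23.9% of all genes, and 4 overlapped. *Ipo13* had the highest log2 fold change of the 48, at 2.44, but on few reads. It had 46 and 191 counts in treated libraries and 44 and 4 counts in controls, so that replicate 1 of both groups was about level.

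The exportins held 3 positive and 4 negative values (beside 51.3% and 48.7% of all genes), with a median log2 fold change of -0.47. *Xpo1*, the exportin (CRM1) of proteins with a leucine-rich export signal, had 323 and 407 CPM in treated libraries and 545 and 579 CPM in controls. The groups did not overlap, and the log2 fold change was -0.62 (standard error 0.30, adjusted p = 0.363 by edgeR). *Cse1l*, which carries importin alpha back to the cytoplasm, had 110 and 108 CPM in treated libraries against 154 and 177 CPM in controls (log2 fold change -0.61, standard error 0.28, adjusted p = 0.345 by edgeR). *Xpot*, the exportin of tRNA, had 20.5 and 17.3 CPM against 28.4 and 34.8 CPM (log2 fold change -0.74). *Xpo4*, *Xpo5*, *Xpo6* and *Xpo7* overlapped between the groups, with log2 fold changes from -0.47 to 0.37.

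All 3 genes of the Ran cycle had a negative log2 fold change (beside 48.7% of all genes). *Ran* had 250 and 233 CPM in treated libraries and 383 and 409 CPM in controls. The replicates of each group lay within 1.07-fold of each other, and the groups were well apart. Its log2 fold change was -0.72 (standard error 0.29, adjusted p = 0.280 by edgeR and 0.123 by DESeq2). The gene (ENSMUSG00000029430) lies on chromosome 5 of GRCm38 from 129020069 to 129024323. Stretches of its transcript at least 95% identical were found in 1 other annotated gene, *Gm13461*. *Nup35*, *Nup54*, *Tnpo1*, *Xpo4* and *Xpot* also had such stretches in 1 other gene each, and *Xpo7* in 3. Reads from these stretches may be missing from the counts of all these genes. *Rcc1*, the exchange factor of Ran, had 23.1 and 19.5 CPM in treated libraries against 26.8 and 32.0 CPM in controls (log2 fold change -0.46, adjusted p = 0.630 by edgeR). *Rangap1* had 17.2 and 21.3 CPM in treated libraries, between the 44.8 and 12.9 CPM of the controls. Its log2 fold change of -0.59 became 0.57 without control replicate 1, so that no direction can be given for it.

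**Figure D3:**
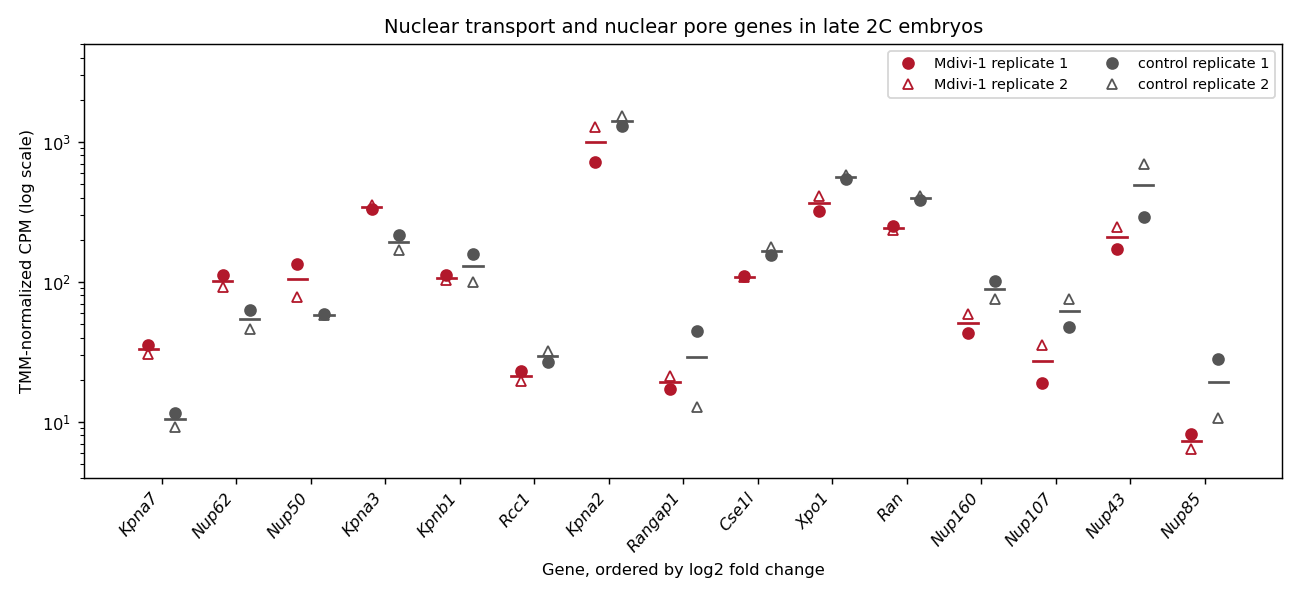
TMM-normalized CPM (y axis, log scale) of 15 nuclear transport and nuclear pore genes (x axis, ordered by log2 fold change) in each library, with Mdivi-1 libraries in red, controls in grey and bars at the group means. For *Kpna7* the treated libraries (35.4 and 30.7 CPM) lie above the controls (11.6 and 9.19 CPM), and for *Ran* they lie below.

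The Y complex, the scaffold of the outer rings of the pore, held 4 of the 5 genes that were lower at an unadjusted p under 0.05. These were 4 of its 6 subunits by the symbol rule, where 7.64% of all genes tested were lower. Of the 6, 5 had a negative log2 fold change (beside 48.7% of all genes), and the median was -0.98. *Nup107*, on chromosome 10 (117750621 to 117792705, minus strand), had 18.9 and 35.4 CPM in treated libraries and 47.8 and 75.5 CPM in controls (log2 fold change -1.18, standard error 0.43, adjusted p = 0.253 by edgeR). *Nup160*, on chromosome 2 (90677215 to 90736328, plus strand), had 43.0 and 59.4 CPM against 101 and 75.0 CPM (log2 fold change -0.79, standard error 0.34, adjusted p = 0.309 by edgeR). In both genes the groups did not overlap (23.9% of all genes lay below in this way), but the replicates of a group were up to 1.87-fold apart.

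*Nup43*, a small subunit on chromosome 10 (7667503 to 7678881, plus strand), had 171 and 247 CPM in treated libraries and 289 and 698 CPM in controls. Control replicate 2 stood far above the other 3 libraries. The log2 fold change was -1.24 (standard error 0.45, adjusted p = 0.253 by edgeR and 0.0396 by DESeq2). Without control replicate 2 it was -0.49 and DESeq2 gave an adjusted p of 0.517, so that the call by DESeq2 was lost. It was also lost without Mdivi-1 replicate 1 (adjusted p = 0.588) and without Mdivi-1 replicate 2 (0.134), and held without control replicate 1 (4.57e-06). *Nup85*, on chromosome 11 (115564434 to 115583985, plus strand), had 8.16 and 6.36 CPM in treated libraries against 28.2 and 10.6 CPM in controls (log2 fold change -1.42, standard error 0.61, adjusted p = 0.313 by edgeR). Here control replicate 1 carried the difference, and the log2 fold change was -0.56 without it. The remaining subunits were *Nup133*, with 20.3 and 20.4 CPM in treated libraries against 22.6 and 36.6 CPM in controls (log2 fold change -0.54), and *Nup37*, with 25.7 and 20.4 CPM against 11.9 and 15.7 CPM (0.74). *Nup37* alone of the 6 had both treated libraries above both controls. *Nup98*, whose transcript also encodes the Y-complex protein NUP96, had 1372 and 1606 CPM in treated libraries, between the 1779 and 898 CPM of the controls.

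Of the Y-complex subunits with symbols outside the rule, *Seh1l* had 110 and 91.9 CPM in treated libraries against 177 and 141 CPM in controls (log2 fold change -0.65). *Ahctf1* (ELYS), which tethers the complex to chromatin, had 116 and 162 CPM against 215 and 178 CPM (log2 fold change -0.50), and *Sec13*, shared with the COPII coat, had 25.3 and 34.3 CPM against 18.6 and 27.6 CPM (0.37). *Nup98*, with a log2 fold change of 0.15 and overlapping groups, is not counted among the 9 subunits here. Over these 9, 7 had a negative log2 fold change (beside 48.7% of all genes). In these 7 both treated libraries lay below both controls (beside 23.9% of all genes). The median of the 9 was -0.65. No subunit passed an adjusted p of 0.05 by edgeR.

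The inner ring gave 4 negative and 1 positive value of 5 (beside 48.7% and 51.3% of all genes). At an unadjusted p under 0.05 were 0 of the 5, beside 8.27% of all genes higher and 7.64% lower. *Nup35* had 109 and 143 CPM in treated libraries against 173 and 242 CPM in controls (log2 fold change -0.72), and *Nup93* 21.0 and 20.6 CPM against 32.2 and 41.5 CPM (-0.82). In both the groups did not overlap (23.9% of all genes lay below in this way), and the adjusted p by edgeR was 0.325 and 0.333. *Nup155* had a log2 fold change of -0.60, and *Nup205* (0.07) and *Nup188* (-0.01) were level between the groups within their spread. Under scaling by library totals the value of *Nup188* was positive.

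The central channel and the basket hold many nucleoporins with phenylalanine-glycine repeats. *Nup62*, a central channel protein encoded on chromosome 7 (44816088 to 44830812, plus strand), had 112 and 91.4 CPM in treated libraries and 63.3 and 45.9 CPM in controls (log2 fold change 0.90, standard error 0.32, adjusted p = 0.246 by edgeR). The groups did not overlap, and replicates differed 1.23-fold in treated embryos and 1.38-fold in controls. Exons of *Atf5* and *Il4i1* overlap 6.27% of the exonic length of *Nup62*, where reads cannot be assigned to 1 gene. *Nup62cl*, an X-linked relative of *Nup62*, had 302 and 222 CPM in treated libraries against 81.3 and 220 CPM in controls. For *Nup62cl* treated replicate 2 and control replicate 2 were thus about level, and control replicate 1 alone was low. *Nup54*, a partner of *Nup62*, had 45.1 and 64.2 CPM in treated libraries and 58.5 and 71.5 CPM in controls, which overlapped (log2 fold change -0.25).

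*Nup50*, encoded on chromosome 15 (84923411 to 84942963, plus strand), is a basket protein that binds importin alpha and helps to release its cargo. It had 133 and 77.8 CPM in treated libraries and 58.6 and 57.8 CPM in controls (log2 fold change 0.86, standard error 0.35, adjusted p = 0.285 by edgeR). The controls were nearly equal, and the size of the difference depended on treated replicate 1, since the log2 fold change was 0.42 without it. *Nup153*, the main basket protein that anchors to the pore, had 110 and 159 CPM in treated libraries against 89.7 and 104 CPM in controls (log2 fold change 0.47, adjusted p = 0.527 by edgeR). The cytoplasmic filament genes *Nup88* and *Nup214* had log2 fold changes of -0.30 and -0.21. The membrane group held *Nup210* and its relative *Nup210l*, and both overlapped between the groups.

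**Figure D4:**
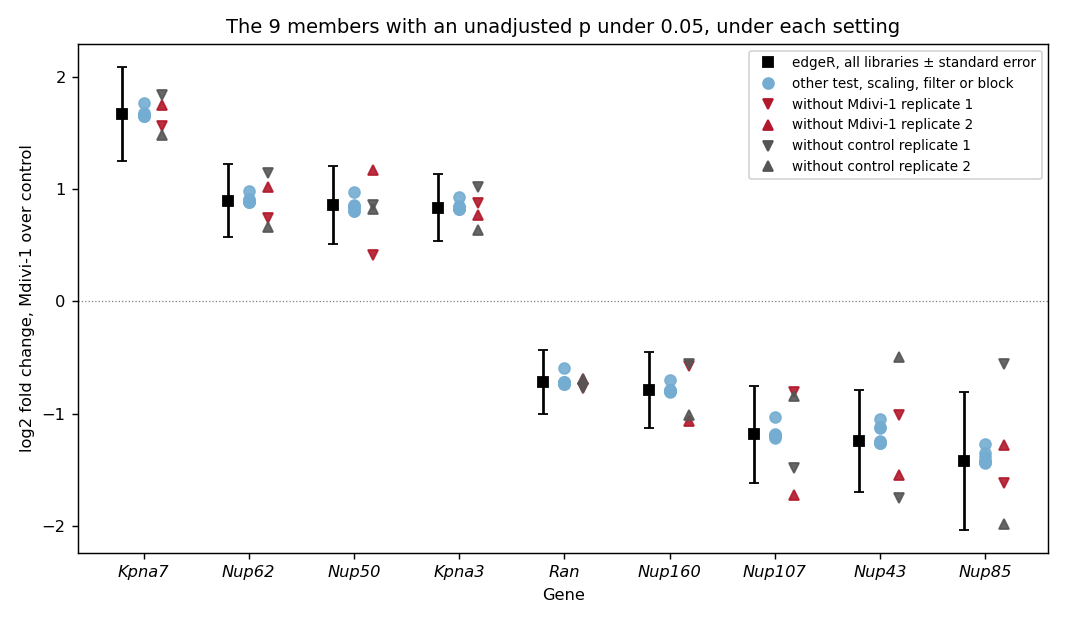
Log2 fold change of Mdivi-1 over control (y axis) of the 9 genes with an unadjusted p under 0.05 (x axis), with edgeR on all libraries as black squares with standard errors, other tests, scalings, filters and the replicate block as blue dots, and fits without 1 library as triangles. No value crosses 0, which leaving out 1 library could hardly bring about, since the groups of these 9 genes did not overlap. *Nup43* lies at -0.49 without control replicate 2.

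Genes that work beside the pore gave values of the same order. Of 12 other pore proteins tested, 10 had a negative log2 fold change (beside 48.7% of all genes), and 1 was lower and 0 higher at an unadjusted p under 0.05 (beside 7.64% and 8.27%). That gene was *Tmem33*, a membrane protein of the endoplasmic reticulum found at the pore, with 21.3 and 16.6 CPM in treated libraries and 49.7 and 75.8 CPM in controls (log2 fold change -1.73, standard error 0.38, adjusted p = 0.153 by edgeR and 0.00521 by DESeq2). *Ranbp2*, the large cytoplasmic filament protein that holds SUMO-bound RANGAP1, had 175 and 231 CPM in treated libraries against 335 and 294 CPM in controls (log2 fold change -0.63). *Tpr*, the core of the basket, had 144 and 214 CPM against 280 and 236 CPM (-0.53). In both genes the groups did not overlap, as 23.9% of all genes lay below in this way.

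Of 8 other Ran cycle and transport factors tested, 7 had a negative log2 fold change (beside 48.7% of all genes), with 2 lower and 0 higher at an unadjusted p under 0.05 (beside 7.64% and 8.27%). *Snupn*, snurportin, the import adaptor of spliceosomal snRNPs, had 145 and 153 CPM in treated libraries and 296 and 301 CPM in controls, with close replicates in both groups. Its log2 fold change was -1.002 (standard error 0.28, adjusted p = 0.193 by edgeR and 0.0205 by DESeq2). *Nemp1*, a Ran-binding protein of the inner nuclear membrane, had 22.6 and 22.9 CPM against 57.6 and 36.2 CPM (log2 fold change -1.04). *Rangrf* (-1.03) and *Ranbp17* (-0.33, and 0.18 without control replicate 1) were further from the threshold.

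The mRNA export factors were split, with 7 positive and 16 negative values of 23 tested entries (beside 51.3% and 48.7% of all genes). The 23 entries held 22 symbols, since *Zc3h11a* had 2 entries, 1 on each side of 0. At an unadjusted p under 0.05, 1 was higher and 1 lower (beside 8.27% and 7.64% of all genes). *Ddx39b*, the helicase of the TREX complex, had 9.82 and 10.01 CPM in treated libraries against 24.4 and 33.5 CPM in controls (log2 fold change -1.55, adjusted p = 0.193 by edgeR). *Pcid2*, a subunit of TREX-2, had 10.5 and 12.5 CPM against 3.32 and 4.53 CPM (log2 fold change 1.55). *Ddx19b*, a helicase at the cytoplasmic side of the pore, had 8.27 and 13.4 CPM against 13.9 and 33.3 CPM (log2 fold change -1.12, and -0.38 without control replicate 2). *Thoc2* (-0.83) and *Ddx19b* had p-values above 0.05.

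At the nuclear lamina and envelope, 4 genes were lower and 1 higher at an unadjusted p under 0.05, of 16 tested, where 7.64% of all genes were lower and 8.27% higher. *Lemd3*, an inner membrane protein, had 36.2 and 17.7 CPM in treated libraries against 64.2 and 66.9 CPM in controls (log2 fold change -1.28, and -1.89 without Mdivi-1 replicate 1). *Tor1b*, a torsin ATPase, had 28.6 and 86.9 CPM against 198 and 126 CPM. Its log2 fold change was -1.49 with all libraries, -0.90 without Mdivi-1 replicate 1 and -2.52 without Mdivi-1 replicate 2. *Tor1aip1*, a torsin cofactor, had 35.2 and 47.4 CPM against 72.9 and 77.4 CPM (log2 fold change -0.86). *Lmnb1*, lamin B1, had 10.8 and 16.2 CPM in treated libraries and 5.28 and 4.53 CPM in controls (log2 fold change 1.46). *Sun1*, an inner membrane protein of the LINC complex named here to complete the count, had a log2 fold change of -0.83. DESeq2 called 1 gene of this list, *Tor1b* (adjusted p = 0.0367).

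Of 16 SUMO genes tested, 3 were lower and 0 higher at an unadjusted p under 0.05 (beside 7.64% and 8.27% of all genes), with 8 values on each side of 0. *Sumo2* had 648 and 575 CPM in treated libraries and 1045 and 1432 CPM in controls (log2 fold change -1.02, adjusted p = 0.217 by edgeR and 0.0179 by DESeq2). *Senp5*, a SUMO protease, had a log2 fold change of -1.06 and *Sae1*, a subunit of the SUMO-activating enzyme, of -1.23. In all of these further lists 0 genes passed an adjusted p of 0.05 by edgeR, as in the table as a whole.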

How the data were processed

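RNA of late 2C embryos was measured in 2 libraries of Mdivi-1-treated and 2 of control embryos. Reads were trimmed by the authors (cutadapt 1.16), aligned by STAR (mm10 per the processing notes, GENCODE M23 per the methods) and counted per gene by its GeneCounts option, which keeps unique alignments. The deposited raw counts were used. The signal columns that the authors made (counts over the size factor of each library, with a mean column), and the log2 fold changes, Wald score and p-values of the authors' DESeq2 comparison, are in the deposited table and were not used. Reads carry no strand and no molecular tag, so that reads from bases where genes overlap cannot be assigned to 1 gene.

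Genes were kept by filterByExpr (minimum count 10), scaled by TMM and tested in R 4.3.3 with the quasi-likelihood test of edgeR 4.0.16, two-sided, with p-values adjusted over all of them by the Benjamini-Hochberg method. Standard errors were worked back from this test. As alternatives, limma-voom (limma 3.58.1), DESeq2 1.42.0 and the likelihood ratio test of edgeR were applied, beside other scalings and filters, the replicate number as a block and each library left out in turn. Replicate libraries differed beyond counting error (chi-square 56.1 per degree of freedom in treated embryos and 124 in controls), and each was counted once. Near-identical stretches (at least 95% identity over 150 bases) and positions were taken from GENCODE M21 on GRCm38, and promoter windows from RefSeq (GRCm38.p6).

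The genes and lists were chosen with earlier results of these data known. Values per library are given for each gene of the rule with an unadjusted p under 0.05. They are also given, whatever their p, for *Kpna7*, *Kpna2*, *Kpnb1*, *Xpo1*, *Cse1l*, *Ran*, *Rangap1* and *Rcc1*. Of each further list, up to 4 genes with the smallest p were named. Among these, *Rangrf*, *Ranbp17*, *Thoc2*, *Senp5* and *Sae1* are given by log2 fold change only. A result that the rule names in these lists is not reported here. The other genes with values were named after these were seen, to fill their role. Fits of DESeq2 without a library were added after seeing the data.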

Additional observations from a re-analysis of the deposited data

How the results depend on the processing

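Leaving out 1 library gave 0 to 1 of the 48 genes past an adjusted p of 0.05, 2 to 7 higher and 0 to 7 lower at an unadjusted p under 0.05, and a median log2 fold change of -0.34 to -0.25. A group with 1 library is then assumed to vary like the other. The counts among all genes tested also changed with the library left out, so that these ranges do not set the 48 genes apart. Past an adjusted p of 0.05 were 2 of the 48 genes with DESeq2, beside 5.98% of all genes in that fit. There were 2 without a low-count filter (beside 4.38%) and 1 by the likelihood ratio test (beside 6.1%). The quasi-likelihood test with all libraries gave 0, as over all genes. The genes lower at an unadjusted p under 0.05 numbered 8 with limma-voom (beside 8.67% of all genes), against 5 (beside 7.64%). There were 2 with library totals only (beside 5.39%) and 2 with the replicate block (beside 6.45%). With library totals only, the median log2 fold change was -0.18, but this scaling moved the median of all genes by 0.107, and relative to all genes the 48 stood at -0.318, against -0.299 with TMM. The replicate block gave 3 higher genes (beside 7.87% of all genes), against 4 (beside 8.27%). The numbers of the labels share no stated litter or day, and same-numbered libraries did not deviate together (correlation 0.00809 over the genes tested). Of 428 values of 35 named genes under other settings, 425 kept their direction, and 3 were reversed, all without control replicate 1 (*Kpnb1* 0.0896, *Rangap1* 0.57 and *Ranbp17* 0.18). These 3 were the only named genes whose groups overlapped. Where groups do not overlap, leaving out 1 library can hardly reverse a direction. The 425 were thus largely fixed by the choice of genes and do not test their directions. Over the fits without 1 library, log2 fold changes ranged from -0.60 to 0.0896 for *Kpnb1*, from -1.24 to 0.57 for *Rangap1* and from -0.74 to 0.18 for *Ranbp17*. *Kpna7* had an unadjusted p under 0.05 in each fit apart from DESeq2 without Mdivi-1 replicate 1, and its adjusted p ranged from 0.0224 to 0.587 over the alternatives. With 2 libraries a group, differences the size of that of *Ran* did not pass the adjusted threshold, which does not show that they are absent.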
